A study of Mus musculus with 5 samples.

Results

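The genes described here are those that present antigen through the major histocompatibility complex (MHC), those named for their induction by interferon, and the interferon regulatory factor (IRF) and signal transducer (STAT) transcription factors. They were chosen by symbol from the annotation of the array platform, with patterns for the H2, B2m, Tap, Ifi, Irf, Stat, Gbp, Irg, Igtp, Iigp, Oas and Isg names. The patterns took 76 of the 13410 genes on the platform, and 55 of the 76 had values on at least 4 of the 5 arrays. The other 21 did not reach that minimum, 4 of them having no value on any array. The lungs came from 129svJ mice, which are inbred, and their RNA was hybridised to 2-colour arrays. There were 5 mice given bleomycin, a DNA-cutting antibiotic that injures lung tissue, with amplified RNA of 1 mouse on each array. Their comparator on every array was the same pool of amplified lung RNA from untreated control 129svJ mice, which is 1 sample. Dose, route, time after treatment, age, sex, dyes and the number of mice in the pool were not stated.

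Each value is the log ratio of a bleomycin mouse and the pool, taken as log2, after the median of the array was set to 0. No source names the log base, and every fold below would be larger if it were a natural logarithm. The labels name the mouse first and the pool second but give no dyes, so it is unknown which of them is the numerator. Values are therefore given by their side of 0, without saying in which of mouse and pool the RNA was more abundant. A ratio gives no level, so the labelled tissue could not be checked against its markers, and genes cannot be ranked by abundance. In bulk lung RNA, fewer cells of a type and less RNA per cell cannot be told apart. Arrays held values for 11350 to 12083 features. Pairs of arrays had a Pearson's r over genes from 0.73 to 0.86, and since all share the pool, their ratios would correlate positively without any effect of treatment.

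Interferons signal through paired receptors and Janus kinases to STAT proteins. Interferon gamma works mainly through a STAT dimer that binds the gamma-activated site (GAS), and type I interferons through a complex of STATs with Irf9 that binds the interferon-stimulated response element (ISRE). Their targets include the peptide transporter and heavy chains of MHC class I, the class II chains of antigen-presenting cells, GTPases that attack vacuoles of pathogens, and antiviral proteins such as the oligoadenylate synthetases. In lung these genes are active in macrophages, dendritic cells, lymphocytes, endothelium and epithelium.

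The sequences upstream of 5 members are shown because these genes lie beside or resemble each other, carry or lack the response elements above, and differ in their ratios as described below. Each stretch is the 100 bases before the annotated start, 5′ to 3′ on the gene's strand, from RefSeq on GRCm38.p6. Capitals mark the core of the ISRE (GAAA, any 2 bases, GAAA) and the GAS (TTC, any 3 bases, GAA), searched on both strands. Irgm2 is taken from chr11:58214877-58214976 (plus strand), Igtp from chr11:58199456-58199555 (plus strand), Irgm1 from chr11:48871421-48871520 (minus strand), Oas1g from chr5:120887614-120887713 (minus strand) and Oas1h from chr5:120861322-120861421 (plus strand).
Irgm2: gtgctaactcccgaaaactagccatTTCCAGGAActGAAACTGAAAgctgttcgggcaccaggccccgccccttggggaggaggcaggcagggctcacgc
Igtp: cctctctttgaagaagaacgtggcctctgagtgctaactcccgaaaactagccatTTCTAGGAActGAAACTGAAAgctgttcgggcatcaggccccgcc
Irgm1: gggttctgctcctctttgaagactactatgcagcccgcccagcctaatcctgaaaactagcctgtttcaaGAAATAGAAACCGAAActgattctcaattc
Oas1g: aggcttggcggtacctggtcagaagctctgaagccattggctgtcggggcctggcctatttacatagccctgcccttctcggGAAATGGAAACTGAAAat
Oas1h: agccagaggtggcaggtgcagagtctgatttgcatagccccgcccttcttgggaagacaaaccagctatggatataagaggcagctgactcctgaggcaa

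Irgm2 and Igtp carry a GAS followed by an ISRE core with 2 bases between them. Irgm1 and Oas1g carry 2 overlapping ISRE cores each, and the Oas1h stretch holds neither motif. Promoter windows of 250 bases before to 50 bases after the start were found for 42 of the 55 measured members. An ISRE core lay in the windows of 15 of the 42 (35.7%), against 3.99% of the 27025 genes with a window and 3.44% of all 32851 windows. A GAS lay in 8 of the 42 (19%), against 9.55% of those genes and 8.3% of windows. The ISRE core was present for 8 of the 17 members below 0 that had a window, 2 of the 11 above 0 and 5 of the 14 that did not pass. The GAS was present for 3 of the 17 below 0, 3 of the 11 above 0 and 2 of the 14 that did not pass. A match is a description of letters and not of a site in use, and its bearing on the ratios was not tested.

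The comparison of each bleomycin mouse with the control pool asks which of these genes differ between bleomycin and control lung. Ifitm3, Oasl1, Ifi204, Oas1g and Ifi44l stood farthest below 0, and Stat6, Irgm1 and Ifit2 farthest above. Of the 55 measured members, 35 passed the test (63.6%, where 49.6% of everything tested passed), 23 below 0 and 12 above 0. That is 41.8% below 0, where 23.9% of all 10081 genes and unnamed features passed on that side, and 21.8% above 0, where 25.8% did. At least 2-fold differences below 0 were found for 5 members (9.09%, background 2.35%), and above 0 for Stat6 alone (1.82%, background 3.24%). The shares of 23.9% below 0 and 25.8% above 0 are also the background of each role group and gene list counted. The median of the members' mean log2 ratios was −0.15, against −0.0066 over everything tested. The test was limma's moderated test of the mean against 0 with Benjamini-Hochberg adjustment over all 10081, and an adjusted p under 0.05 is called passing.

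**Figure D1:**
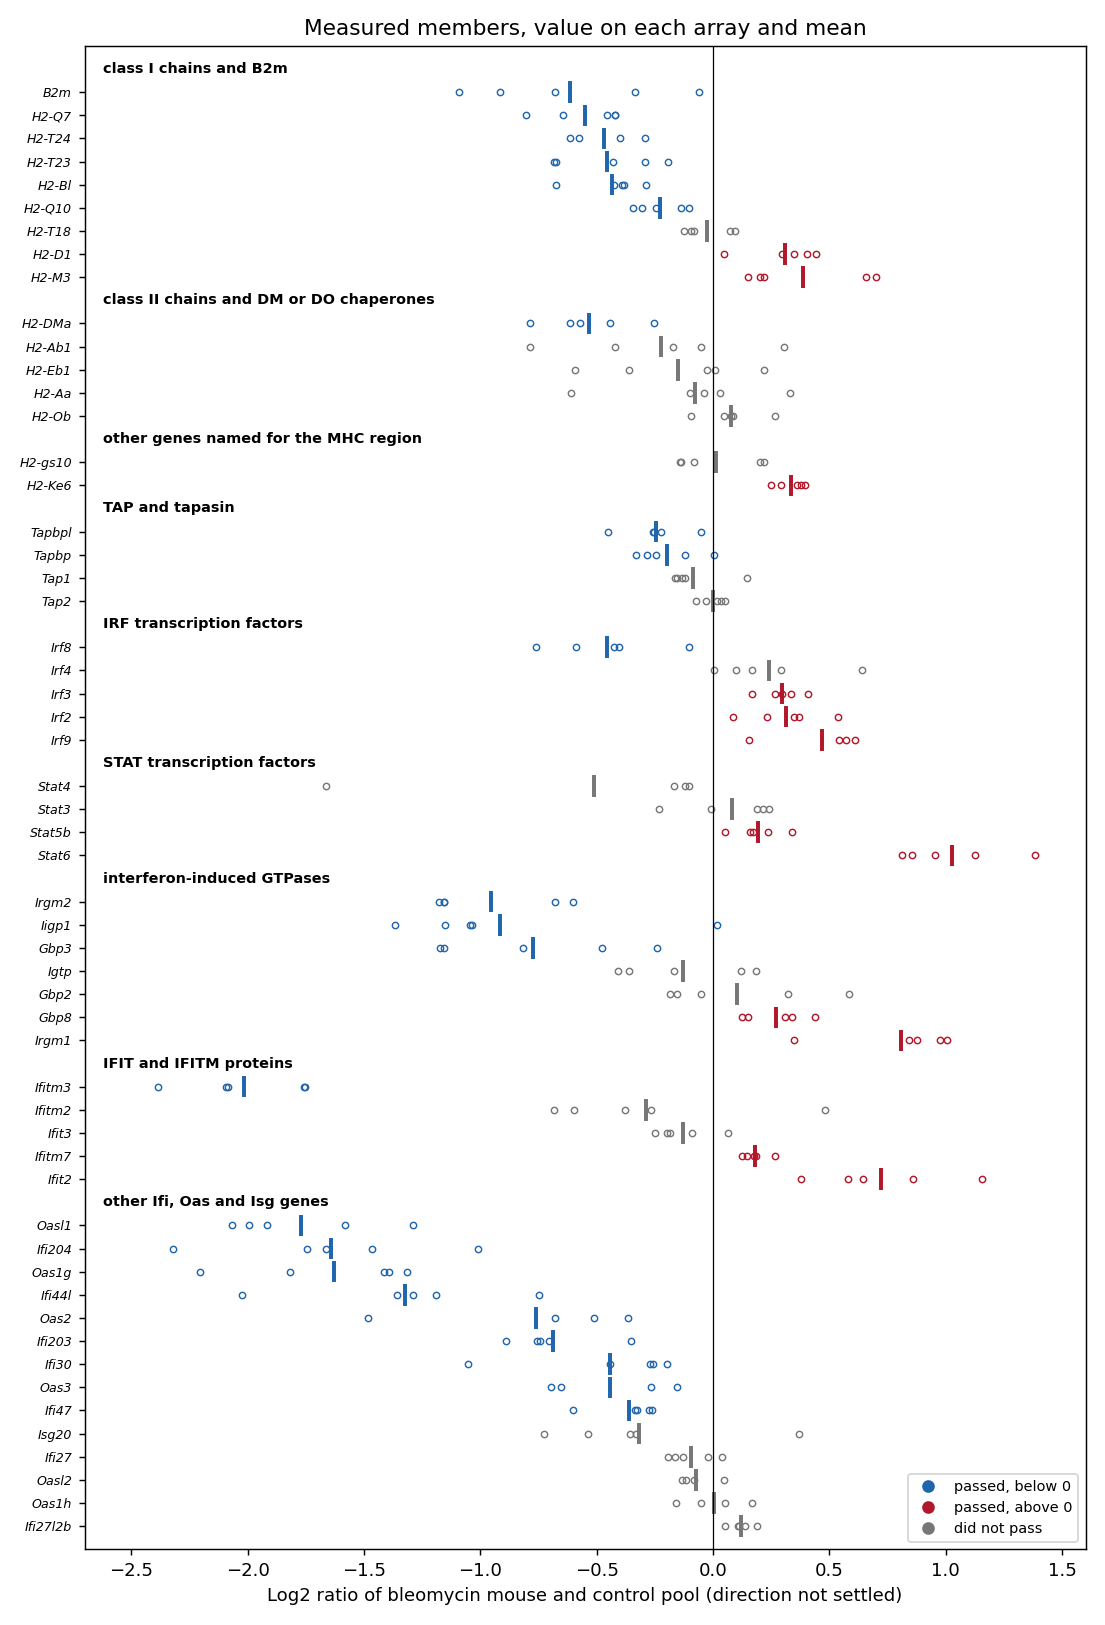
Log2 ratio of bleomycin mouse and control pool (x axis) for the 55 measured members, by role; open circles are single mice and bars are means. Ifitm3, Oasl1, Ifi204, Oas1g and Ifi44l lie below −1 on average, Stat6 lies above 1, and groups such as the GTPases hold members on both sides of 0.

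The pool is the same on every array, and its own sampling error is not part of that test. When the pool was given the spread of a single bleomycin mouse, 4 members passed (7.27%, background 5.09%). They were Ifitm3, Oasl1 and Oas1g below 0 (5.45%, background 2.11%) and Stat6 above 0 (1.82%, background 2.98%). In that setting, combined with leaving out mice after the data had been seen, Ifitm3 and Oasl1 passed whichever mouse was left out, with adjusted p up to 0.0294 and 0.0476 by limma. Oas1g missed without mouse 2, 4 or 5 (adjusted p = 0.0654, 0.0732 and 0.0562 by limma), and Stat6 missed without mouse 2, 3 or 5 (adjusted p = 0.0838, 0.0928 and 0.0711 by limma). The share over everything tested was not counted for a further requirement of at least 1.2-fold. With the pool taken as fixed, that requirement left 14 members past the threshold. They were H2-Q7, H2-DMa, Irgm2, Iigp1, Gbp3, Ifitm3, Oasl1, Ifi204, Oas1g, Ifi44l and Ifi203 below 0, and Stat6, Irgm1 and Ifit2 above 0.

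**Figure D2:**
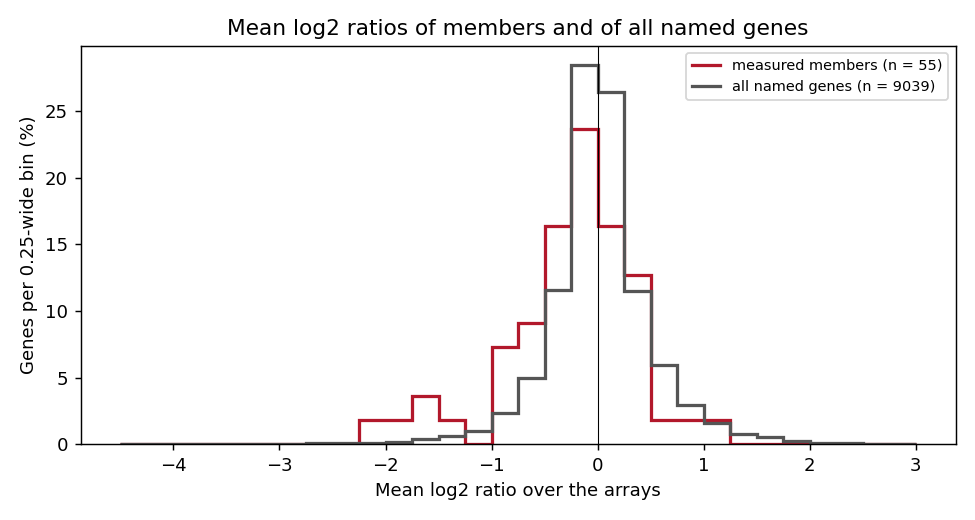
Share of genes (y axis, %) by mean log2 ratio (x axis, bins 0.25 wide) for the 55 measured members and for all 9039 named genes. The members' line lies above that of all genes in most bins below −0.25 and under it in the bins next to 0, with the median member at −0.15.

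Class I molecules display peptides from inside the cell and consist of a heavy chain and the light chain beta-2 microglobulin, B2m. Of 9 measured genes, 6 lay below 0, 2 above 0 and 1 did not pass, with a median of −0.43 over the group. B2m had log2 ratios of −1.09, −0.68, −0.92, −0.059 and −0.34 in mice 1 to 5. All mice were below 0, but mouse 4 was close to it and mouse 1 far from it, and the mean was −0.62 ± 0.42 (SD, n = 5; adjusted p = 0.0126 by limma). By an unmoderated one-sample test B2m missed the threshold (adjusted p = 0.068).

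The non-classical heavy chains varied less between mice than B2m. H2-Q7, which encodes a Qa-2 antigen, stood at −0.80, −0.46, −0.64, −0.42 and −0.42 in mice 1 to 5, with a mean of −0.55 ± 0.17 (adjusted p = 0.000991 by limma). H2-T24 had −0.61, −0.29, −0.57 and −0.40 in mice 1, 3, 4 and 5 and no value in mouse 2. Its mean was −0.47 ± 0.15 (n = 4; adjusted p = 0.00356 by limma). H2-T23, the heavy chain of Qa-1, which is a ligand of natural killer receptors, stood at −0.43, −0.20, −0.69, −0.67 and −0.29. No array of these 3 genes reached 0, and the mean of H2-T23 was −0.46 ± 0.22 (n = 5; adjusted p = 0.00471 by limma).

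H2-Bl and H2-Q10, a secreted class I chain known from liver, also passed below 0, at −0.43 and −0.23. H2-D1, a classical heavy chain that presents peptides to CD8 T cells, lay on the other side, at 0.41, 0.44, 0.35, 0.049 and 0.297 in mice 1 to 5 (mean 0.31 ± 0.15; adjusted p = 0.00902 by limma). So did H2-M3, which presents formylated bacterial peptides, at a mean of 0.39 (adjusted p = 0.0171 by limma). A second H2-D1 feature, on too few arrays to be used, lay below 0, at −0.187 in mouse 2 and −0.078 in mouse 4. The side of H2-D1 thus rests on 1 of its features. Without mouse 4 H2-M3 missed the threshold (adjusted p = 0.0515), as H2-Q10 did without mouse 2 (adjusted p = 0.0512). H2-T18, the thymus leukaemia antigen, had a mean of −0.027 and did not pass. Class I chains are closely alike in sequence and probe sequences were not used here, so their ratios may share signal.

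Peptides reach class I molecules through the transporter Tap1 with Tap2, held near the empty heavy chain by tapasin, Tapbp. Tap1 stood at 0.147 in mouse 1 and between −0.16 and −0.12 in the other mice, with a mean of −0.085 ± 0.13 (adjusted p = 0.289 by limma). Tap2 lay between −0.073 and 0.051 in all mice, with a mean of −0.0004 ± 0.051 (adjusted p = 0.995 by limma). Its 95% interval from the limma fit ran from −0.11 to 0.11. Tapbp, at −0.196, and its relative Tapbpl, a peptide editor, at −0.25, passed below 0 (adjusted p = 0.0379 and 0.0176 by limma). Tapbp passed in only 1 of the 5 fits that left out a mouse, that without mouse 2, with adjusted p up to 0.11 otherwise. Tapbpl missed without mouse 3 or mouse 5 (adjusted p = 0.0512 and 0.0503).

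Of 7 measured genes from a separate list for class I loading and the immunoproteasome, 2 lay below 0, 1 above and 4 did not pass. The immunoproteasome subunits Psmb8 and Psmb9, which favour peptides fit for class I, stood at −0.501 ± 0.10 and −0.37 ± 0.22 (adjusted p = 0.00046 and 0.0108 by limma). Psmb8 was below 0 in every mouse, from −0.62 to −0.37. Pdia3, a thiol oxidoreductase of the class I loading complex and of glycoprotein folding at large, stood at 1.58 ± 0.25 (adjusted p = 4.47e-05 by limma). Pdia3 also passed once the pool's spread was allowed for (adjusted p = 0.0169).

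Class II molecules display peptides from endosomes to CD4 T cells, and their chains are made mainly by dendritic cells, B cells and macrophages. Of 5 measured genes of class II chains and their DM and DO chaperones, 1 lay below 0, 0 above and 4 did not pass. H2-Ab1, the beta chain of I-A, stood at −0.79, −0.17, −0.42, 0.306 and −0.052 in mice 1 to 5. H2-Eb1, the beta chain of I-E, stood at −0.59, 0.008, −0.36, 0.22 and −0.024. H2-Aa, the alpha chain of I-A, stood at −0.61, −0.037, −0.10, 0.33 and 0.029. In these 3 chains mouse 1 was the lowest and mouse 4 the highest, mouse 3 was second lowest, and the mice lay on both sides of 0.

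The mean over H2-Ab1, H2-Eb1 and H2-Aa was −0.66, −0.067, −0.295, 0.29 and −0.016 in mice 1 to 5. None of the 3 passed (adjusted p = 0.231, 0.319 and 0.621 by limma), and none passed in any fit that left out a mouse. The mean of H2-Aa turned to 0.056 without mouse 1. H2-DMa, the alpha chain of the DM molecule that exchanges peptides on class II, behaved otherwise, at −0.79, −0.57, −0.44, −0.62 and −0.25. All its mice were below 0, with a mean of −0.53 ± 0.20 (n = 5; adjusted p = 0.00177 by limma). H2-Ob, a chain of the DO molecule that restrains DM, had a mean of 0.076 (adjusted p = 0.338 by limma).

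**Figure D3:**
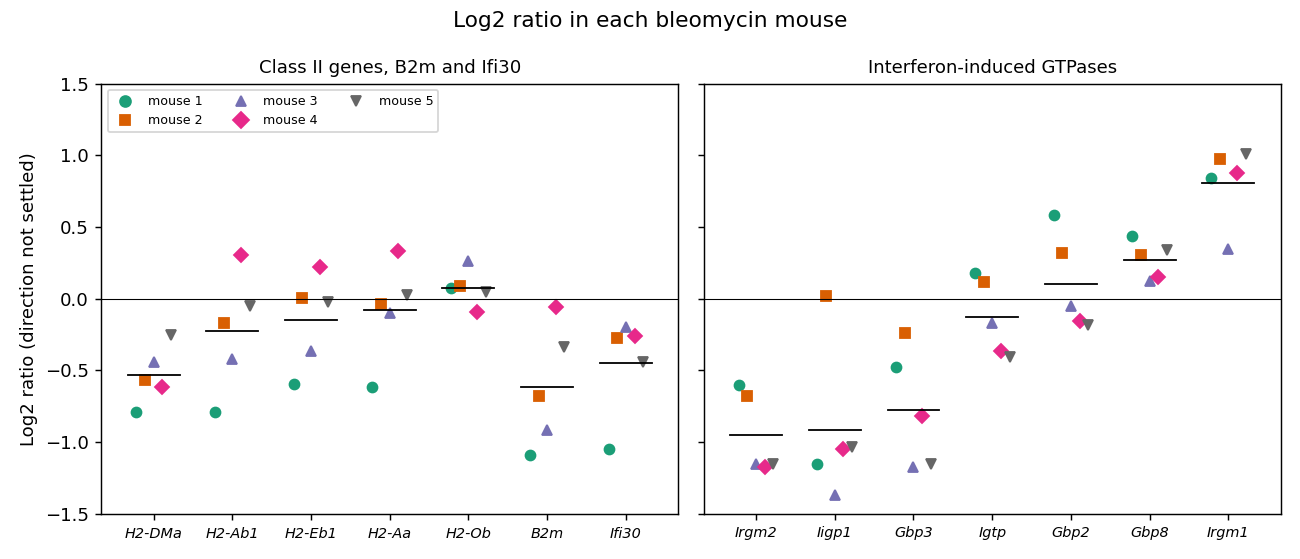
Log2 ratio in each bleomycin mouse (y axis; one marker per mouse, black bars are means) for class II genes, B2m and Ifi30 (left) and for 7 measured interferon-induced GTPases, Ifi47 not among them (right). In H2-Ab1, H2-Eb1, H2-Aa and B2m mouse 1 is lowest and mouse 4 highest, and in Irgm2, Gbp3, Igtp and Gbp2 mice 1 and 2 lie above mice 3 to 5.

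Markers of the cells that carry class II did not follow 1 pattern over the mice. Of 12 measured macrophage and monocyte markers, 9 lay below 0, 1 above and 2 did not pass, where 23.9% below 0 and 25.8% above 0 are the background. Their median in mice 1 to 5 was −1.32, −0.59, −0.49, −0.79 and −0.67, so that mouse 1 was lowest, as in the class II chains, but mouse 4 was second lowest. The complement genes C1qb and C1qa stood farthest out, at −2.68 ± 0.23 and −2.11 ± 0.79. C1qa was lowest in mouse 1 and highest in mouse 4, at −3.28 and −1.09, whereas C1qb stood at −2.80 and −2.86 in these mice. All 3 measured dendritic cell markers lay below 0, among them Itgax at −0.54 and Flt3 at −0.34, with a list median of −0.48, −0.13, −0.34, −0.16 and −0.36 in mice 1 to 5. Itgax was lowest in mouse 4, at −0.83, and Flt3 was highest there, at −0.12. Of 7 B and plasma cell markers, 2 lay below 0, Jchain at −0.698 and Cd79a at −0.33, and 5 did not pass. Of 8 T and NK cell markers, 2 lay above 0, Cd2 at 0.37 and Gzmb at 0.29, and 6 did not pass, so that the share above 0 was near the background of 25.8%. Of 10 endothelial markers, 8 lay above 0, with Pecam1 at 2.45 and Tmem100 at 2.32, and 2 did not pass. The part of these cells in the ratios of the members was not tested.

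Genes that load class II or drive its transcription were divided. Of 6 measured, 2 lay below 0, 1 above and 3 did not pass. The endosomal protease Lgmn stood at −0.62 ± 0.41 (adjusted p = 0.011 by limma), with −1.25, −0.535, −0.66, −0.12 and −0.54 in mice 1 to 5. The subunits Nfyb and Nfya of the factor that binds the Y box of class II promoters, and many other promoters, stood at −0.32 and 0.645 (adjusted p = 0.0493 and 0.000399 by limma). Cd74, Ciita and Nfyc did not pass, at −0.34, −0.16 and 0.10 (adjusted p = 0.1, 0.0523 and 0.146 by limma). Cd74 stood at −0.003, −0.92, 0.04, −0.15 and −0.67 in mice 1 to 5, lowest in mouse 2 and highest in mouse 3. The endosomal thiol reductase Ifi30, which unfolds antigens for class II, stood at −1.05 in mouse 1 and between −0.44 and −0.20 in the others. Its mean was −0.44 ± 0.35 (adjusted p = 0.0235 by limma), −0.29 without mouse 1, and it missed the threshold without mouse 5 (adjusted p = 0.0623) and by the plain one-sample test (adjusted p = 0.0917).

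H2-Ke6 and H2-gs10 share the prefix of the MHC genes. H2-Ke6 encodes a hydroxysteroid dehydrogenase and presents no antigen. It lay above 0 in every mouse, from 0.25 to 0.395, with a mean of 0.33 ± 0.062 (adjusted p = 0.00153 by limma). H2-gs10 had a mean of 0.011 and did not pass.

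IRF proteins bind the ISRE and related sites. Of 5 measured IRF genes, 1 lay below 0, 3 above and 1 did not pass. Irf8, needed for monocytes, dendritic cells and their interferon response, stood at −0.59, −0.40, −0.76, −0.43 and −0.102 in mice 1 to 5 (mean −0.46 ± 0.25; adjusted p = 0.00652 by limma). Irf9, the DNA-binding partner of the STATs after type I interferon, had 0.54, 0.153, 0.61 and 0.57 in mice 2 to 5 and no value in mouse 1. Its mean was 0.47 ± 0.21 (n = 4; adjusted p = 0.00757 by limma), and it missed by the plain one-sample test (adjusted p = 0.0539). Irf8 and Irf9 thus lay on opposite sides of 0 on every array with values for both.

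Irf2, which competes with Irf1 for its sites, was above 0 in every mouse, from 0.087 to 0.54 (mean 0.31 ± 0.17; adjusted p = 0.0101 by limma). Irf3, which switches on interferon beta once a virus is sensed, was likewise above 0 in every mouse, from 0.17 to 0.41 (mean 0.29 ± 0.089; adjusted p = 0.00391 by limma). Irf4, a factor of lymphocytes and of alternatively activated macrophages, averaged 0.24 ± 0.25 and did not pass (adjusted p = 0.0707 by limma). The differences of Irf2, Irf3, Irf8 and Irf9 were between 1.23-fold and 1.38-fold.

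Of 4 measured STAT genes, 2 lay above 0 and 2 did not pass. Stat6, the transducer of interleukin-4 and interleukin-13, stood at 0.81, 0.95, 1.12, 1.38 and 0.85 in mice 1 to 5. Every mouse was far above 0, with a mean of 1.02 ± 0.23 (adjusted p = 0.000188 by limma), a 2.03-fold difference. Stat5b, which serves growth hormone and interleukin-2, averaged 0.19 ± 0.11 (adjusted p = 0.0279 by limma) and was lost on omitting mouse 1, 2, 3 or 5 (adjusted p from 0.0642 to 0.0848). Stat3, the transducer of interleukin-6, averaged 0.08 ± 0.20 and did not pass (adjusted p = 0.44 by limma). Stat4, the transducer of interleukin-12, stood at −1.66 in mouse 1 and at −0.102, −0.119 and −0.167 in mice 2, 3 and 5, and had no value in mouse 4. It did not pass (adjusted p = 0.169 by limma), and its mean was −0.51 with mouse 1 and −0.13 without it.

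**Figure D4:**
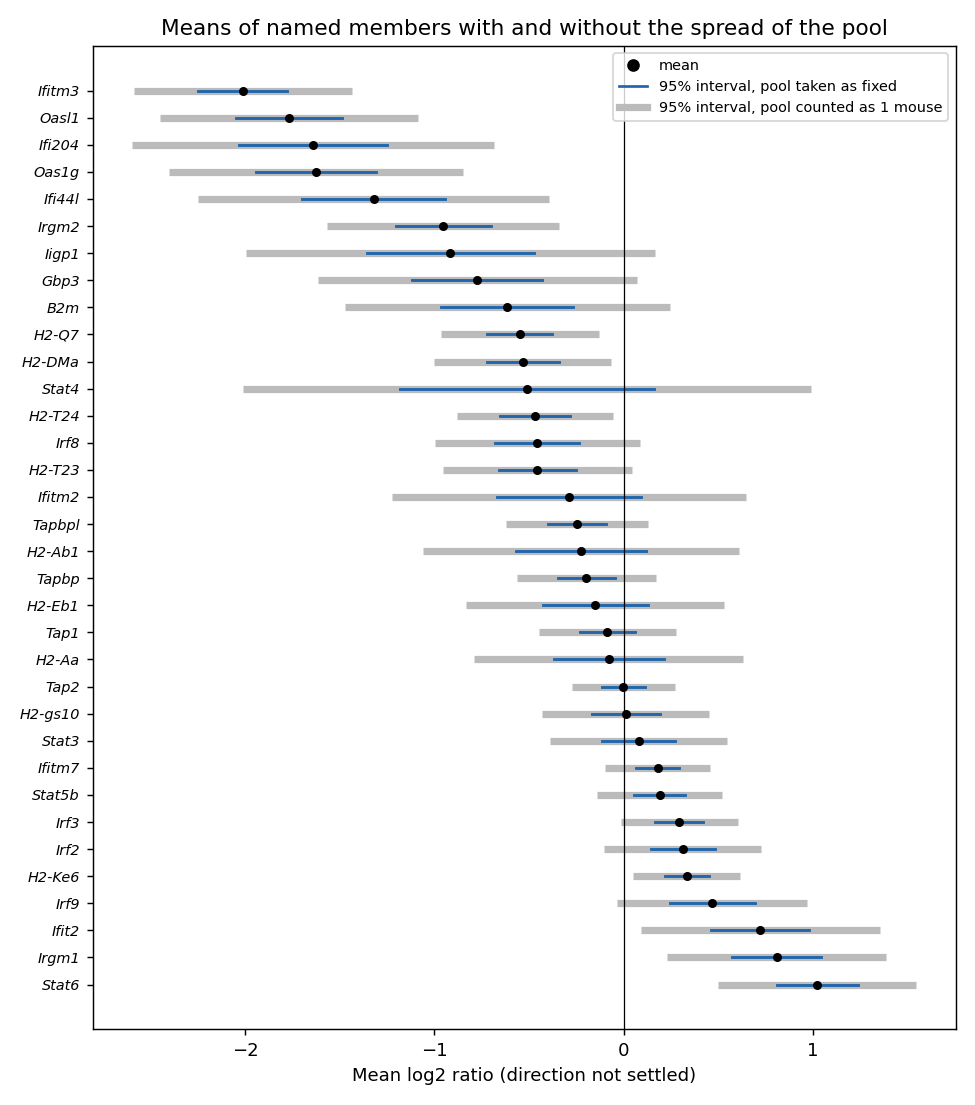
Mean log2 ratio (x axis) of the 34 named members with 95% intervals from the limma fit, taking the pool as fixed (thin) or as 1 control mouse (thick). The thick intervals of Ifitm3, Oasl1 and Oas1g end at −0.849 or lower and that of Stat6 starts at 0.502, while those of B2m, H2-Ab1 and Stat4 span 0.

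Upstream of these factors, 8 genes of interferons, receptors and Janus kinases were measured, with 1 below 0, 3 above and 4 that did not pass. Ifng, interferon gamma itself, was below 0 in every mouse, from −0.66 to −0.059 (mean −0.34 ± 0.23; adjusted p = 0.0164 by limma). Ifngr1, the ligand-binding chain of its receptor, lay on the other side at 1.27, 1.84, 1.74, 2.28 and 1.62 in mice 1 to 5 (mean 1.75 ± 0.37; adjusted p = 0.000101 by limma). Ifnar2, a chain of the type I receptor, averaged 0.53 ± 0.20 (adjusted p = 0.0018 by limma). Ifngr1 also passed once the pool's spread was allowed for (adjusted p = 0.0308), and Ifng and Ifnar2 did not.

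Of 9 measured inhibitors of JAK-STAT signalling, 4 lay below 0, 2 above and 3 did not pass. Socs3, the feedback inhibitor of Stat3 signalling, stood at −2.001, −1.46, −1.70, −2.45 and −1.84 in mice 1 to 5 (mean −1.89 ± 0.37; adjusted p = 7.57e-05 by limma). Its ratio was 3.71-fold from equality, while that of Stat3 was 1.06-fold. The STAT inhibitors of the Pias family, which act as SUMO ligases, divided, with Pias4 at −1.34 ± 0.37, Pias1 at 1.59 ± 0.35 and Pias3 at 0.25 ± 0.15 (adjusted p = 0.000299, 0.000125 and 0.0192 by limma). With the pool's spread allowed for, Socs3 and Pias1 still passed (adjusted p = 0.0248 and 0.0363 by limma in that setting).

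The interferon-induced GTPases include immunity-related GTPases (here Irgm1, Irgm2, Igtp, Iigp1) and the guanylate-binding proteins (Gbp genes). The group was formed by symbol, so the GTPase Ifi47 is counted with the other Ifi genes below. Of 7 measured in the group, 3 lay below 0, 2 above and 2 did not pass. Irgm2 stood at −0.603, −0.68, −1.16, −1.18 and −1.15 in mice 1 to 5, with a mean of −0.95 ± 0.29 (adjusted p = 0.000494 by limma). Irgm1, a regulator of the same subfamily, stood at 0.84, 0.97, 0.35, 0.88 and 1.01, with a mean of 0.81 ± 0.27 (adjusted p = 0.000768 by limma). Irgm2 minus Irgm1 lay between −2.16 and −1.44 in the 5 mice.

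Igtp, the third regulator of this subfamily, is the immediate neighbour of Irgm2 among protein-coding genes of the RefSeq annotation. Igtp stood at 0.18, 0.12, −0.17, −0.36 and −0.41 in mice 1 to 5 and did not pass (mean −0.13 ± 0.27; adjusted p = 0.327 by limma). The difference of Irgm2 minus Igtp lay between −0.99 and −0.75 in the 5 mice, with a mean of −0.83 and an SD of 0.093, smaller than the SD of either gene. Both genes were higher in mice 1 and 2 than in mice 3 to 5. The stretches printed above for the pair hold the same GAS and ISRE core arrangement, and a link to their ratios was not tested. As for the class I chains, probe sequences were not used, so related genes may share signal.

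Iigp1, an effector GTPase of this family, stood at −1.15, 0.018, −1.36, −1.05 and −1.03 in mice 1 to 5. Mouse 2 was near 0 and the others past 2-fold, with a mean of −0.92 ± 0.54 (adjusted p = 0.00639 by limma) and of −1.15 without mouse 2. Gbp3 stood at −0.48, −0.24, −1.18, −0.82 and −1.15 (mean −0.77 ± 0.41; adjusted p = 0.00452 by limma). Gbp2, separated from Gbp3 by 1 protein-coding gene, stood at 0.58, 0.32, −0.054, −0.154 and −0.18 and did not pass (mean 0.102; adjusted p = 0.509 by limma). Gbp3 lay below Gbp2 in all 5 mice, and both were higher in mice 1 and 2 than in the rest. Gbp8 passed above 0 at a mean of 0.27 (adjusted p = 0.0106 by limma).

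The IFITM proteins sit in membranes and block the entry of viruses, and the IFIT proteins bind viral RNA and translation factors. Of 5 measured, 1 lay below 0, 2 above and 2 did not pass. Ifitm3, which restricts influenza virus, stood at −2.09, −1.75, −2.08, −1.76 and −2.38 in mice 1 to 5, farther from 0 in the mean than any other measured member (4.04-fold). Ifitm2, with 1 protein-coding gene between it and Ifitm3, stood at −0.68, −0.38, −0.27, 0.48 and −0.598 (mean −0.29 ± 0.46; adjusted p = 0.175 by limma). Mouse 4 was the exception, and without it Ifitm2 passed at a mean of −0.48 (adjusted p = 0.00683). Ifitm3 minus Ifitm2 lay between −2.24 and −1.375 in the 5 mice.

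Ifitm7 averaged 0.18 ± 0.055 (adjusted p = 0.0183 by limma) and missed without mouse 5 (adjusted p = 0.0504). Ifit2 stood at 0.38, 0.86, 0.58, 1.15 and 0.64 in mice 1 to 5, all above 0 (mean 0.72 ± 0.30; adjusted p = 0.00177 by limma). Its immediate neighbour Ifit3 averaged −0.13 ± 0.12 and did not pass (adjusted p = 0.112 by limma), although without mouse 1 it passed below 0 at −0.18 (adjusted p = 0.0393). Ifit3 minus Ifit2 lay between −1.34 and −0.31 in the 5 mice.

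Of the 14 other measured Ifi, Oas and Isg genes, 9 lay below 0, 0 above and 5 did not pass, with a median of −0.44. Oasl1, an oligoadenylate synthetase-like protein that represses translation of Irf7 in mouse, stood at −1.29, −1.58, −2.06, −1.92 and −1.99 in mice 1 to 5. Every mouse was past 2-fold, with a mean of −1.77 ± 0.33 (adjusted p = 6.59e-05 by limma), a 3.41-fold difference. Oasl2, its immediate neighbour, lay between −0.135 and 0.047 on 4 arrays and did not pass (mean −0.071; adjusted p = 0.364 by limma). Oasl1 minus Oasl2 lay between −1.95 and −1.34 in the 4 mice with both values.

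The same contrast was seen in a second pair of neighbours. Oas1g, an oligoadenylate synthetase whose product activates RNase L, stood at −1.39, −1.41, −2.21, −1.82 and −1.31 in mice 1 to 5 (mean −1.63 ± 0.38; adjusted p = 0.000144 by limma). Oas1h, its immediate neighbour, lay between −0.158 and 0.169 on 4 arrays and did not pass (mean 0.0035; adjusted p = 0.972 by limma). Oas1g lay below Oas1h in all 4 mice with both values. A ratio near 0 can also come from a probe near background, and signal over background is unknown here.

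Oas2 and Oas3, also immediate neighbours, lay closer together, at −0.7595 ± 0.498 and −0.44 ± 0.27 on 4 arrays each (adjusted p = 0.0162 and 0.0181 by limma). Over the 3 mice with both values their difference averaged 0.019 and was of either sign. Oas3 was lost on omitting mouse 3 or mouse 4 (adjusted p = 0.065 and 0.0636), and both genes missed it by the plain one-sample test (adjusted p = 0.103 and 0.0926).

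Ifi204 and Ifi203 belong to the p200 family of DNA-binding proteins and lie with 2 protein-coding genes between them. Ifi204 stood at −2.32, −1.01, −1.67, −1.47 and −1.74 in mice 1 to 5 (mean −1.64 ± 0.47; adjusted p = 0.000326 by limma). Ifi203 ranged from −0.89 to −0.35 (mean −0.69 ± 0.20; adjusted p = 0.000627 by limma). In both genes mouse 2 was nearest to 0, and Ifi204 was below Ifi203 in all 5 mice.

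Ifi44l stood at −1.29, −1.19, −2.02, −1.36 and −0.75 in mice 1 to 5 (mean −1.32 ± 0.46; adjusted p = 0.000721 by limma). The mean over Oasl1, Oas1g and Ifi44l was lowest in mouse 3, at −2.098, and between −1.70 and −1.32 in the other mice. The GTPase Ifi47 passed below 0 at −0.36 ± 0.14 (adjusted p = 0.00358 by limma). Isg20, an exonuclease of RNA, stood at 0.37 in mouse 4 and from −0.72 to −0.33 in the others, and did not pass (adjusted p = 0.112 by limma). Without mouse 4 it passed at −0.49 (adjusted p = 0.00596). Ifi27 and its neighbour Ifi27l2b averaged −0.093 and 0.118 and did not pass.

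A separate list of other interferon-induced genes was divided as well. Of 29 measured, 12 lay below 0, 5 above and 12 did not pass, with a median of −0.17. Zbp1, a sensor of Z-form nucleic acids that triggers cell death, stood at −1.31, −1.25, −1.65, −0.93 and −0.999 in mice 1 to 5 (mean −1.23 ± 0.28; adjusted p = 0.000166 by limma). The secreted glycoprotein Lgals3bp averaged −1.04 ± 0.54 (adjusted p = 0.0037 by limma). On the other side, Ifih1, the cytosolic sensor of long double-stranded RNA, stood at 0.83, 1.12, 0.24, 1.78 and 1.84 (mean 1.16 ± 0.67; adjusted p = 0.00565 by limma). Slfn2, a regulator of quiescence in T cells and monocytes, averaged 1.02 ± 0.42 (adjusted p = 0.00146 by limma). Zbp1 alone of the 29 passed with the pool's spread allowed for (adjusted p = 0.0446).

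Over the 5 pathway lists, 59 of 85 listed genes were measured, with 21 below 0, 12 above and 26 that did not pass. The 33 of 59 that passed on either side were close to the background share of 49.6%. By side, the 21 of 59 below 0 were a larger share than the background of 23.9%. The 12 of 59 above 0 were a smaller share than the background of 25.8%. Over the members, the median of the ratios in mice 1 to 5 was −0.25, −0.083, −0.18, −0.13 and −0.165. Of the 48 members with a value in every mouse, mouse 3 was the lowest for 15, mouse 1 for 14 and mouse 2 for 2. Mouse 1 was the highest for 15, mouse 2 for 11 and mouse 3 for 5. These counts were not set against those over all genes. The SD of all deposited values was 0.59, 0.49, 0.53, 0.52 and 0.51 on the arrays of mice 1 to 5, widest for mouse 1 and narrowest for mouse 2. All measured arrays lay on 1 side of 0 for 36 of the 55 measured members, and for 33 of the 35 that passed. Passing itself favours arrays on 1 side, and the share over everything tested was not counted. Among those that passed, the exceptions were Iigp1 and Tapbp, each with mouse 2 just above 0.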

How the data were processed

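The values deposited by the authors are 1 log2 ratio per feature and array (base 2 is assumed). Normalization, scanner and direction were not stated, and array medians as deposited were 0.011 to 0.026. Each of 5 arrays was centred on its median, and features with values on at least 4 arrays were kept (10702 of 17280). Symbols of the platform annotation were updated through gene identifiers with RefSeq (GRCm38.p6), and features of 1 symbol were averaged, giving 10081 genes and unnamed features. No member's symbol changed. Means were set against 0 by limma 3.58.1 under R 4.3.3 (intercept only, empirical Bayes, two-sided), after a check on simulated data. The simulated noise was independent between arrays, so the check could not show the effect of an error shared through the pool. The pool is 1 control sample, so its spread is left out unless stated. Flipping the signs of 5 arrays exactly gives p of at least 0.0625. No intensities were used, so the number of arrays limits precision. The alternatives changed centring, scaling, the filter, naming, averaging, the test, the pool and the mice included.

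Members and lists were chosen with earlier results of these data known. The text names, per role group, up to 4 members farthest from 0. Per pathway list it names up to 2 that passed on each side, and per marker list the 2 farthest from 0. Members and list genes named beyond that were chosen after their values were seen.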

Additional observations from a re-analysis of the deposited data

Results flagged for a closer look

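In 7 of the 55 measured members 1 mouse stood apart from the others, its gap to the nearest mouse exceeding the 95% critical value of Dixon's test. Chance gives such a gap in about 1 of 20 genes if values are normally distributed. The share over everything tested was not counted, so the members cannot be compared with other genes in this. In mouse 1 Tap1 was at 0.147, against −0.16 to −0.12 in the others. Stat4 was at −1.66 in mouse 1 against −0.167 to −0.102, and Ifi30 at −1.05 against −0.44 to −0.196. Mouse 3 was lowest for Irf9, at 0.153 against 0.54 to 0.61, and for Irgm1, at 0.349 against 0.84 to 1.01. Iigp1 was at 0.018 in mouse 2 and between −1.36 and −1.03 elsewhere. Ifi47 was at −0.603 in mouse 4 and between −0.34 and −0.26 elsewhere.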

How the results depend on the processing

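No paired analysis was possible because the 5 arrays form 1 group against 1 pool. Counting the pool as 1 control mouse left 4 of 35 members past the threshold (3 below 0, 1 above), 5 of 33 pathway genes past the threshold and 13 of 52 named genes past the threshold. A minimum of 1.2-fold left 14 members (11 below, 3 above), 18 pathway genes and 30 named genes. Leaving out each mouse gave 30 to 34 members (20 to 23 below, 10 to 11 above), 27 to 33 pathway genes, 44 to 51 named genes and, with the pool counted as well (a combination chosen after seeing the data), 2 to 6 members past the threshold with the pool as 1 control mouse, the 2 being without mouse 5. The plain one-sample test ended 7 member calls. Shares over everything tested were counted only for the main test and for the pool as 1 control mouse, not for the other settings. Values not centred, arrays scaled alike, features on 3 or on 5 arrays, platform symbols and medians over features ended none of the calls of members they measured. Of the 35 calls, 14 held in every setting except that of the pool. Tap2 turned to 0.015 without centring and to 0.0012 with scaling. The labels give no dyes, so dye bias cannot be told apart from a difference.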

Other observations

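In the main test 49.6% of everything tested passed, and the share with features on 3 arrays kept was not counted. Among members with values on 3 arrays, 2 of 9 passed once such features were kept. They were Isg15, a ubiquitin-like modifier, at −0.465, −0.236 and −0.304 in mice 1, 2 and 4 (adjusted p = 0.0213 by limma), and Gbp2b at 0.49, 0.12 and 0.30 in mice 1 to 3 (adjusted p = 0.0497 by limma). Irf1, the activator with which Irf2 competes, had 0.334, −0.019 and 0.357 in mice 3 to 5 and did not pass (adjusted p = 0.131 by limma). Irf7, the factor whose translation Oasl1 represses in mouse, had −0.288 and −0.253 in mice 2 and 4 and no value elsewhere. Ifit1 had −0.083 and −0.297 in mice 1 and 3. Gbp4, H2-T10, Ifi35 and Stat2 had no value on any array.

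Stat3 was measured by 2 features, with means of 0.15 on 5 arrays and 0.014 on 4 arrays, and neither passed. A further H2-D1 feature had values on 2 arrays, −0.187 in mouse 2 and −0.078 in mouse 4. They lie on the other side of 0 from the H2-D1 feature used above.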
